A study of Arabidopsis thaliana with 18 samples.

Results

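The broad H3K4me3 peaks of wild-type Arabidopsis seedlings were those at least 2500 bp long on chromosomes 1 to 5 that shared at least 1 bp with a gene locus of the RNA-seq table and no base with an H3K27me3 peak. They numbered 492 of the 15782 peaks in the wild-type H3K4me3 list, or 3.13% of its 15724 nuclear peaks and 6.34% of the bases under them. They touched the loci of 993 of the 19858 genes listed in the RNA-seq table. Overlapping genes share 1 merged locus there, as 276 of the 993 did, and a peak on such a locus counts for each. Of the 550 nuclear peaks that reached 2500 bp, 23 touched no listed locus and another 35 overlapped H3K27me3. The peaks were thus chosen by measured values of the WT ChIP libraries (length, overlap with a listed gene and absence of H3K27me3), so these features are a description and carry no test.

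H3K4me3 is trimethylation of lysine 4 of histone H3, a mark laid down by SET-domain methyltransferases around the start of transcribed genes. In plants it usually forms a short domain just downstream of the start, and it is removed by JmjC-domain demethylases. H3K27me3 is the mark of Polycomb silencing, and H3K9me2 marks silent repeats and transposons.

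The study compared wild type (WT) with the pold2 mutant, both of ecotype C24, in 10-day-old whole seedlings that received no treatment by the labels. POLD2 is a subunit of DNA polymerase delta, which copies the genome. Plants were kept at 22 °C under a day of 23 h light, on MS medium set with agar (0.8%) and containing sucrose (20 g/L). RNA was sequenced in 3 libraries per genotype, which the authors pooled to 1 FPKM value (fragments per kilobase of transcript, scaled to library size) per gene and genotype, and each WT peak list came from 1 library. The pooled values therefore have no SD or n, a peak has no replicate, and the read depth behind both is unknown. No label states that the RNA libraries of a genotype were grown apart, so the spread behind the q-values may be technical. In bulk seedlings, fewer cells of a type and less RNA per cell cannot be told apart. Leaf and root genes were present in WT, with the small Rubisco subunit gene RBCS1A at 16839 FPKM and the root gene PYK10 at 1578 FPKM. The root genes IRT1 and EXPA7 stood at 77.3 and 2.26 FPKM, and the seed gene AT2S3 was not listed. Floral and seed markers differed in level between the genotypes, with WT and pold2 levels of 6.79 and 196 FPKM for SEP3, AP3 at 0.166 and 6.81 FPKM, AG at 0.0939 and 2.45 FPKM, CRA1 at 7.51 and 33.1 FPKM, and OLEO1 at 3.00 and 8.09 FPKM. None of these markers lay under a broad peak, and their part in the results below was not tested.

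The broad peaks ran from 2500 to 6677 bp, with quartiles of 2604, 2774 and 3081 bp, against a median of 1334 bp for all nuclear peaks. They were spread over the genome, with 140 on chromosome 1, 69 on chromosome 2, 99 on chromosome 3, 72 on chromosome 4 and 112 on chromosome 5. That is between 2.83% and 3.41% of each chromosome's peaks. The peaks on either side of the threshold were alike in kind. Just inside it stood a 2500 bp peak over AT1G13350 and AT1G13360, a 2500 bp peak over AT2G38830 and AT2G38840, and a 2502 bp peak over AT5G08415 and AT5G08420. Just outside stood a 2499 bp peak over AT5G59740 and RIBA3, a 2498 bp peak over SRF1 and LIP1, and a 2498 bp peak over AT2G48060, RPH1 and AT2G48075. All 6 had the same score of 3100. For comparison, 12183 peaks of 1000 bp to under 2500 bp (called mid-length here) and 1216 peaks under 1000 bp met the same conditions other than length.

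Most broad peaks spanned more than 1 gene. A single listed gene lay under 138 peaks (28.0%, 95% Wilson interval 24.3 to 32.2), 2 genes under 222 (45.1%), 3 under 109 (22.2%), 4 under 20 (4.07%) and 5 under 3 (0.610%). Peaks with 2 or more genes made up 354 of the 492 (72.0%, 67.8 to 75.7), against 29.1% of mid-length peaks and 15% of peaks under 1000 bp. A longer peak has more room for genes. Per kilobase there were 0.696 genes in broad peaks, 0.918 in mid-length peaks and 1.37 in peaks under 1000 bp. Every peak had to touch at least 1 listed gene, so a peak under 1000 bp has more than 1 gene per kb by the rule. Nothing is read from that order. Overlapping genes share 1 merged locus in the table, and counted by distinct loci 325 broad peaks (66.1%) had 2 or more. These intervals cover counting error only.

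**Figure D1:**
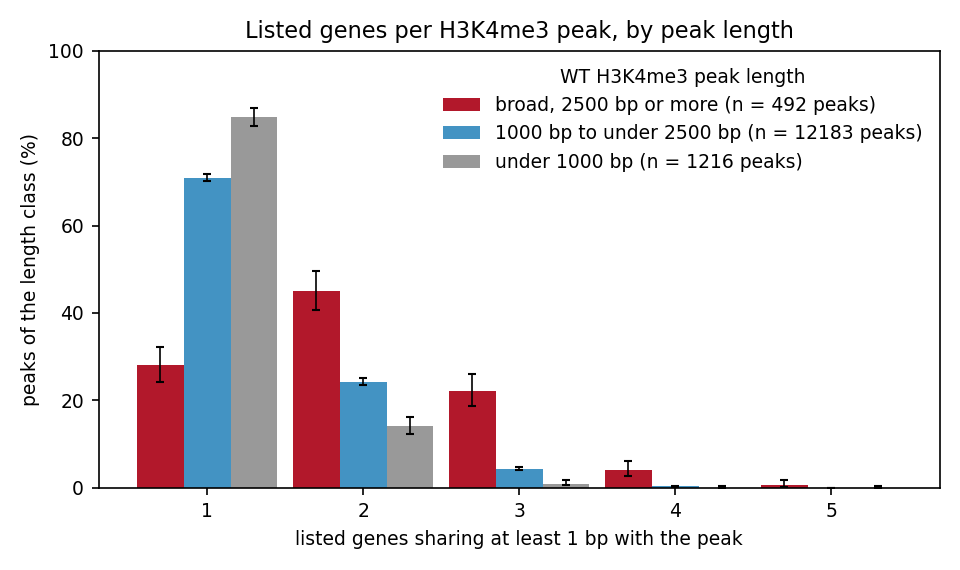
Share of peaks (vertical axis, percent) by the number of listed genes that share at least 1 bp with the peak (horizontal axis), for broad peaks (red, n = 492), mid-length peaks (blue, n = 12183) and peaks under 1000 bp (grey, n = 1216), with 95% Wilson intervals. Broad peaks most often held 2 genes (45.1%), and the shorter classes most often held 1.

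Touching a gene and covering it were different things. Among peaks with several genes, 121 (24.6% of all broad peaks) covered 50% or more of the loci of 2 or more genes, 141 covered that much of only 1 gene, and 92 of none. Among mid-length peaks, 1.48% covered 50% or more of 2 or more genes. Coverage is that of the merged locus and is counted per gene, so 2 genes that share 1 covered locus count as 2. At least 1 gene lay entirely inside the peak in 158 broad peaks (32.1%), against 8.68% of mid-length peaks. The median broad peak had 87.8% of its bases inside listed loci. In the peaks with 1 gene, the locus had a median length of 3166 bp and a median of 79.2% of it was covered, against 2462 bp and 46.0% under mid-length peaks with 1 gene. Of those 138 peaks, 118 covered 50% or more of their gene and 20 less.

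The longest peaks showed these layouts. The longest, 6677 bp on chromosome 5 (4690622 to 4697298, TAIR10), covered 2 merged loci completely, that of AT5G14550 with AT5G14560 and that of the microRNA gene MIR398c with the nitrate transporter gene NRT2.7, and touched 1.01% of AT5G14580. Its highest gene, AT5G14560, had 440 FPKM in WT against 454 in pold2, and the other 4 between 6.16 and 7.99 FPKM in WT. The next, 5991 bp on chromosome 1 (5444131 to 5450121), held LHCB6, a light-harvesting antenna protein gene of photosystem II at 2748 FPKM in WT, with AT1G15810, AT1G15825 and AT1G15830 at 19.6, 47.7 and 15.9 FPKM. The 5965 bp peak on chromosome 4 (18022878 to 18028842) held 5 genes in 2 merged loci, among them the phospholipase C gene PLC1 at 2.45 FPKM and AT4G38550 at 28.9 FPKM. A 5506 bp peak on chromosome 5 (4531590 to 4537095) held PHT3;1, a mitochondrial phosphate carrier gene, at 227 FPKM, AT5G14050 at 40.9 FPKM and the aspartate kinase gene CARAB-AK-LYS at 145 FPKM. The 5090 bp peak on chromosome 5 held the magnesium transporter gene MGT9 at 6.70 FPKM and the cell wall xylosidase gene XYL4 at 30.1 FPKM, and the 4655 bp peak on chromosome 4 held PDE334, a chloroplast ATP synthase gene, at 818 FPKM with 3 neighbours between 6.97 and 11.9 FPKM. In the 4571 bp peak on chromosome 1 (7142874 to 7147444), the catalase gene CAT3 was fully covered and stood at 363 FPKM, and its neighbour CAT1 was covered to 24.2% and stood at 20.9 FPKM. The remaining peak with 5 genes was shorter, 3112 bp on chromosome 1 (29450457 to 29453568), and its genes, SNRK2-8 and UGT85A4 among them, stood between 6.81 and 12.1 FPKM.

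Peaks with 1 gene could be nearly as long. The longest of these measured 5444 bp on chromosome 5 (21699969 to 21705412) and covered 52.8% of the 9865 bp locus of GLT1, the NADH-dependent glutamate synthase gene. It was followed by 4493 bp over HA2 (AHA2, a plasma membrane proton pump), 4033 bp over GLDP1 (a glycine decarboxylase subunit of photorespiration), 4016 bp over GUN5 (the magnesium chelatase H subunit of chlorophyll synthesis) and 3885 bp over G18F (ATG18F, an autophagy gene). Their WT levels ranged from 10.5 FPKM for G18F to 1207 FPKM for GUN5, with 257 for GLT1, 489 for HA2 and 557 for GLDP1.

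**Figure D2:**
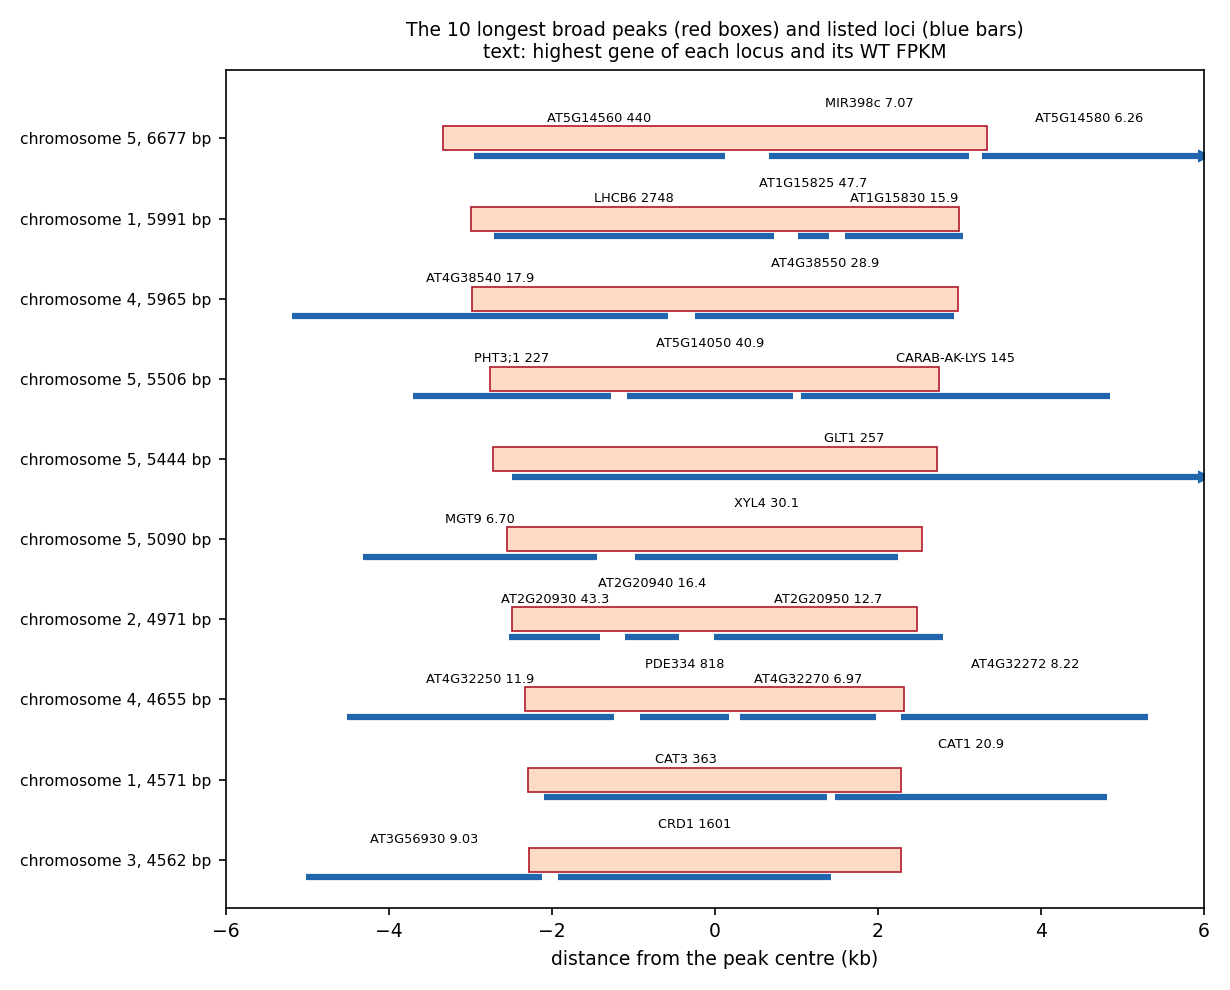
The 10 longest broad peaks drawn to scale (red boxes) with the listed loci they touch (blue bars, arrowheads where a locus runs past the frame), by distance from the peak centre in kb. Text gives the highest gene of each locus and its WT FPKM; GLT1, at 257 FPKM, is alone under its 5444 bp peak, and LHCB6, at 2748 FPKM, shares a 5991 bp peak with 3 other genes.

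The score, the authors' own value for each peak, was saturated in most broad peaks. It was exactly 3100 in 375 of the 492 and 3100 or more in 384 (78.0%), against 14.7% of mid-length peaks and 0 of the 1216 peaks under 1000 bp. Score and length come from the same peak call, so this is a description within 1 list. The highest scores were 3230 over PXY, a receptor kinase gene of vascular stem cells, 3227 over the chaperonin gene CPN60B and ECT4, 3192 over JAC1 and RRA2, 3180 over EBS5 and its neighbours, and 3169 over AT4G38150 and pde191. Only 8 broad peaks scored under 1000. The lowest were 252 over the ABC transporter gene ABCG37, 374 over NAI2 and 437 over AT2G07715. AT2G07715 stood at 0.697 FPKM in WT, and 42.8% of its peak lay in listed loci. Across the 492 peaks, which share 1 library for length and 1 pooled RNA value, length and the log2 of the highest WT FPKM under the peak correlated with a Pearson r of 0.22 and a Spearman rho of 0.16. Score and that level correlated at 0.23 and 0.24, and length and score at 0.08 and 0.13.

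H3K9me2 was rare under broad peaks. It overlapped 3 of them (0.610%), against 62 mid-length peaks (0.509%) and 3 peaks under 1000 bp. The 3 held the genes 2A6, Sadhu4-2 (listed as a pseudogene) and AHP5, the genes PAI1, HTB1 and AT1G07795, and ADC1, which encodes an arginine decarboxylase. By the reference annotation, 960 of the 993 genes were protein coding, 20 were long noncoding RNA genes, 6 other noncoding RNA genes, 2 pseudogenes and 1 a microRNA gene. The other 4 were not matched.

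Genes under broad peaks were more highly expressed in WT than genes under shorter peaks. Their WT level ranged from 0.269 to 5812 FPKM, with quartiles of 8.73, 20.8 and 52.4 FPKM. The quartiles were 6.71, 15.3 and 35.3 FPKM under mid-length peaks, 3.67, 9.32 and 23.1 FPKM under peaks below 1000 bp, and 4.35, 12.1 and 30.2 FPKM over all listed genes. The ranges overlapped almost entirely. In pold2 the quartiles of the 993 genes were 8.52, 20.6 and 52.9 FPKM. The share of listed genes that lay under a broad peak was 2.43% below 5 FPKM in WT, 4.76% from 5 to under 20, 6.48% from 20 to under 100, 10.1% at 100 or more, and 17.1% (19 of 111) at 1000 or more. Counted per peak, the highest gene had a median of 46.9 FPKM under broad peaks, 19.6 under mid-length peaks and 10.7 under peaks below 1000 bp.

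The difference was largest, among the peak groups compared, where a peak held 1 gene. The gene of the 138 such broad peaks had quartiles of 16.9, 44.5 and 103 FPKM in WT and a median of 45.6 FPKM in pold2. Under mid-length peaks with 1 gene the WT quartiles were 7.33, 15.9 and 35.5 FPKM, and under the shortest peaks the median was 9.17 FPKM. Locus length differed too, so the comparison was repeated within loci of at least 2500 bp, a choice made after the data were seen. There the WT medians were 49.9 FPKM (116 broad peaks), 15.4 FPKM (4210 mid-length peaks) and 8.50 FPKM (421 peaks under 1000 bp). In loci under 2500 bp the medians were 17.5 FPKM (22 broad peaks) and 16.7 FPKM (4430 mid-length peaks).

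**Figure D3:**
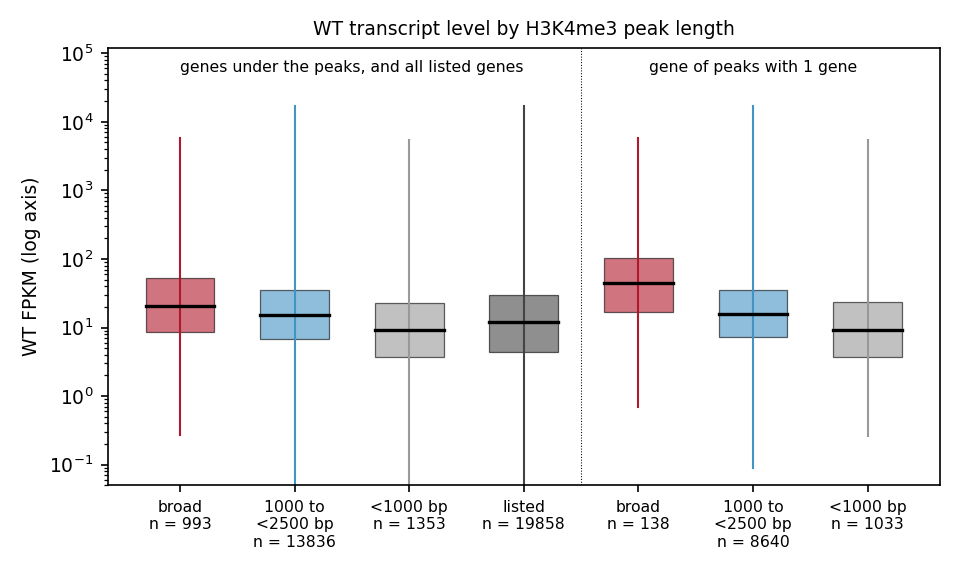
WT FPKM (vertical log axis) of genes under broad, mid-length and short peaks and of all listed genes (left), and of the gene of peaks that hold 1 gene (right). Boxes are quartiles with the median as a black line, and vertical lines run from the lowest to the highest value, or to the bottom of the axis where a value lies below it; the median of broad peaks with 1 gene is 44.5 FPKM.

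A broad peak over several genes did not mean that they were expressed alike. In the 354 peaks with several genes, the highest gene stood at a median of 3.60 times the second highest, against 3.39 times in mid-length peaks. In 84 of them (23.7%) it was at least 10 times higher. The highest gene had the most bases under the peak, or tied for most, in 206 of the 354 (58.2%), against 73.8% of mid-length peaks with several genes. Bases were counted by merged locus, so genes that share 1 locus tie, and a peak with a single locus always counts. Of the 354 broad and 3543 mid-length peaks with several genes, 325 and 2119 held 2 or more distinct loci. These 2 shares therefore cannot be compared. Neighbouring genes in separate loci under 1 broad peak (267 pairs, median gap 280 bp) had WT levels that correlated at a Pearson r of -0.06. Their log2 ratios of pold2 over WT correlated at 0.22, against 0.10 in 9689 other neighbouring pairs no more than 2305 bp apart. All pairs share the same pooled libraries, and the 2 kinds of pair differ in gap, since the median gap of those 9689 was 567 bp.

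Some broad peaks held only listed genes of low level. In 16 of the 492 no listed gene reached 5 FPKM in WT. They included a 3287 bp peak over the separase gene ESP (AT4G22970, EXTRA SPINDLE POLES) and AT4G22980, with a highest level of 3.96 FPKM. Another was a 2776 bp peak over AT5G01830 (symbol SAUR21 in the reference annotation) at 3.10 FPKM. Both peaks had a score of 3100. The lowest single genes lay under peaks that also held a higher one. They were AT1G15002, a long noncoding RNA gene with 0.269 FPKM in WT against 0.729 in pold2, ASY1, a meiotic chromosome axis gene at 0.414 and 0.992 FPKM, and RLP36, a receptor-like protein gene at 0.457 and 0.610 FPKM. All 3 stood below 0.501 FPKM in WT, and each listed gene reached 0.501 FPKM or more in at least 1 genotype. They are thus listed only through a higher pold2 value, and nothing is read from their rise. ASY1 had a q of 0.00662 in the authors' deposited table, and the peak covered 17.8% of its shared locus. The highest gene under the same peak stood at 145 FPKM for ASY1, 133 FPKM for RLP36 and 12.3 FPKM for AT1G15002.

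Most of the highest levels belonged to genes for chloroplast proteins. The 19 genes at 1000 FPKM or more in WT, named after their values were seen, lay under 19 broad peaks, and no peak held more than 1 of them. Some shared their peak with genes below that level, as PSAH2 did with ROPGEF11. RCA, encoding Rubisco activase, had 5812 FPKM in WT against 6035 in pold2, and LHCB3, an antenna protein gene of photosystem II, at 5544 and 4135 FPKM. The photosystem I subunit genes were PSAO at 4613 and 3424 FPKM, PSAH2 at 3641 and 2679 FPKM, PSAG at 3577 and 2920 FPKM, and PSAF at 3171 and 2534 FPKM. FED A, the gene for the electron carrier ferredoxin, stood at 4030 and 3501 FPKM, LHCB6 at 2748 and 1916 FPKM, and PSBO2, of the oxygen-evolving complex, at 1127 and 881 FPKM. Carbon fixation was represented by CA1 (carbonic anhydrase) at 2819 and 2892 FPKM, CP12-1 at 2093 and 1855 FPKM and GAPB at 1638 and 1619 FPKM. Chlorophyll synthesis was represented by CRD1 at 1601 and 1328 FPKM, AT1G74470 (geranylgeranyl reductase, CHLP) at 1524 and 1326 FPKM and GUN5 at 1207 and 1163 FPKM. The others were the metallothionein gene MT3 at 2576 and 1678 FPKM, the ribosomal protein gene AT5G02960 at 1194 and 962 FPKM, the chaperone gene HSC70-1 at 1179 and 1216 FPKM and the photorespiratory aminotransferase gene GGT1 at 1133 and 1049 FPKM. Of the 19, 16 were lower in pold2 by value, and 8 passed a q under 0.05 as lower and 0 as higher by the authors' deposited table. A share of 42.1% was thus called lower, near the 39.6% of all 111 listed genes at that level, of which 44 were lower and 2 higher by the authors' deposited table. The 8 were LHCB3, PSAO, PSAH2, PSAF, LHCB6, MT3, AT5G02960 and PSBO2. LHCB3, LHCB6, MT3 and CRD1 share a merged locus with another gene, and near-identical family members can exchange reads.

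In the authors' deposited table, 109 of the 993 (11.0%) had a q under 0.05, against 12.4% of all listed genes. The authors' deposited table had 45 of them higher in pold2 (4.53%, against 5.97% of all listed genes) and 64 lower (6.45%, against 6.47%). An unadjusted p under 0.05 was held by 220 of them, against 24.0% of all listed genes, and a q under 0.01 by 61, against 7.59%, in the authors' deposited table. Called changes were small, with a median size of 1.32-fold and a range of 1.21- to 2.45-fold in the authors' deposited table. At least 2-fold changes passed in 4 genes, 2 higher and 2 lower, or 0.403% of the 993, against 1.59% of all listed genes (1.20% higher, 0.388% lower) in the authors' deposited table. The share called differed by level. Among genes under 20 FPKM in WT, 25 of 486 under broad peaks passed a q under 0.05 (5.14%), against 1445 of all 12873 (11.2%), in the authors' deposited table. From 20 FPKM up, 84 of 507 passed (16.6%), against 1025 of all 6985 (14.7%), in the authors' deposited table. The median log2 ratio, computed with a pseudocount of 1 FPKM, was -0.01 under broad peaks and -0.01 over all listed genes. None of the 993 was listed at 0 in either genotype.

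**Figure D4:**
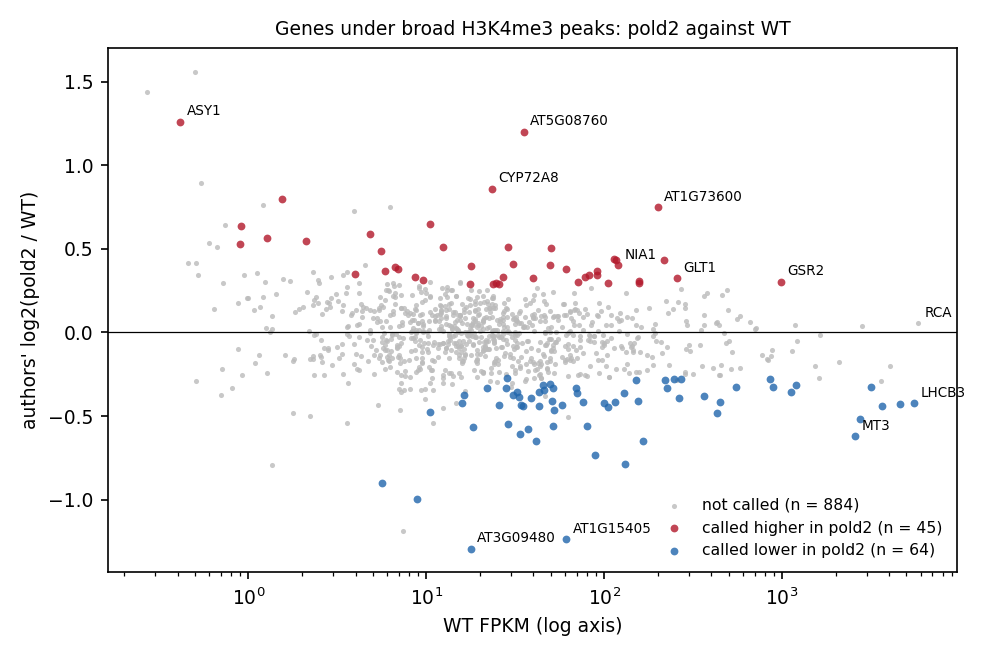
Log2 ratio of pold2 over WT in the authors' deposited table (vertical axis) against WT FPKM (horizontal log axis) for the 993 genes under broad peaks. Red points (45) passed a q under 0.05 as higher, blue points (64) passed it as lower, and grey points (884) did not pass.

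The genes that were alone under their broad peak leaned the other way from those that shared one, a split made after the values were seen. Of the 138 genes alone under a broad peak, 22 were higher (15.9%) and 7 lower (5.07%) in pold2 in the authors' deposited table. Of all listed genes 5.97% were higher and 6.47% lower. Of the 855 genes found only under broad peaks with 2 or more genes, 23 were higher (2.69%) and 57 lower (6.67%) by the authors' deposited table. The shares called lower were thus near that of all listed genes in both groups. Under mid-length peaks with 1 gene, 368 of 8573 genes were higher (4.29%) and 555 lower (6.47%) by the authors' deposited table. The groups also differ in level and in locus length. In loci of at least 2500 bp at any level, genes alone under shorter peaks also had more rises than falls called. By the authors' deposited table, mid-length peaks had 222 of 4156 such genes rising (5.34%) and 128 falling (3.08%). For peaks under 1000 bp the deposited calls were 42 of 410 rising (10.2%) and 8 falling (1.95%). For broad peaks they were 20 of 116 (17.2%) and 7 (6.03%). The lean was thus not confined to broad peaks. Within loci of at least 2500 bp and at least 20 FPKM in WT, 16 of 89 genes alone under a broad peak were higher (18.0%) and 7 lower (7.87%), against 48 (2.93%) and 76 (4.63%) of 1640 under mid-length peaks, in the authors' deposited table. In the same range of length and level, genes that shared a broad peak had 4 of 220 higher (1.82%) and 17 lower (7.73%) by the authors' deposited table. Of 86 genes in that range alone under peaks shorter than 1000 bp, the deposited calls had 7 rising (8.14%) and 4 falling (4.65%). Binning by WT level uses the WT values that also enter the ratio. The median log2 ratio was 0.05 for the 138 genes alone and -0.02 for the 855 others, so the difference between the groups as a whole was small. The difference was not tested.

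Among the 22 genes that were higher, the largest rise was that of AT1G73600, a methyltransferase gene, from 200 to 336 FPKM (log2 0.75, q = 0.00103 in the authors' deposited table). ADC2, the stress-induced arginine decarboxylase of polyamine synthesis, went from 216 to 292 FPKM (log2 0.43, q = 0.00103 in the authors' deposited table). NIA1, a nitrate reductase, went from 120 to 159 FPKM (log2 0.40, q = 0.00188 in the authors' deposited table). GSR2, a cytosolic glutamine synthetase, went from 981 to 1211 FPKM (log2 0.30, q = 0.0466 in the authors' deposited table). GLT1 went from 257 to 343 FPKM (q = 0.0420 in the authors' deposited table). Its log2 ratio was 0.33 in the authors' deposited table but 0.41 when recomputed from its FPKM values, the 1 row of 19841 where they differed by more than 0.001.

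Transporter genes in the group were ABCG37, at 71.0 FPKM in pold2 (log2 0.51), PEN3 (ABCG36), from 116 to 157 FPKM (log2 0.44), and ABCG34, from 25.6 to 31.3 FPKM (log2 0.29), in the authors' deposited table. These 3 belong to the same full-size ABC transporter family. OPT3, which moves iron in the phloem, went from 61.1 to 79.5 FPKM, and CAX1, a vacuolar calcium exchanger, from 82.4 to 105 FPKM. FRO7, the chloroplast ferric reductase, went from 23.8 to 29.1 FPKM. The group also held THIC of thiamine synthesis (78.0 to 98.1 FPKM), the ER body gene NAI2 (156 to 194 FPKM), the subtilase gene ARA12 (91.0 to 116 FPKM), the homeobox gene BLH1 (30.6 to 40.5 FPKM) and AT5G57710 (SMAX1, a repressor of karrikin signalling, 49.3 to 65.0 FPKM). The remaining AT4G15260, AT1G01830, IP5PII, AT1G07280, AT2G23200 and AT5G56040 stood between 6.88 and 39.8 FPKM in WT.

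Of the 7 that were lower, RAP2.7 (TOE1), an AP2-type repressor of flowering, fell from 51.3 to 34.9 FPKM (log2 -0.56, q = 0.00103 in the authors' deposited table). GTL1, a trihelix factor that limits trichome and root hair growth, fell from 34.9 to 25.7 FPKM (log2 -0.44, q = 0.00103 in the authors' deposited table). LNG2, which promotes cell elongation, fell from 28.3 to 23.5 FPKM (log2 -0.27, q = 0.0496 in the authors' deposited table). RPT2, a phototropism gene, fell from 271 to 223 FPKM, and STP1, a hexose transporter gene, from 49.8 to 40.2 FPKM. AT1G27210 fell from 37.1 to 24.9 FPKM and the receptor-like kinase gene AT4G34220 from 28.7 to 19.7 FPKM. The changes of all 29 genes were between 1.21- and 1.68-fold in the authors' deposited table.

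**Figure D5:**
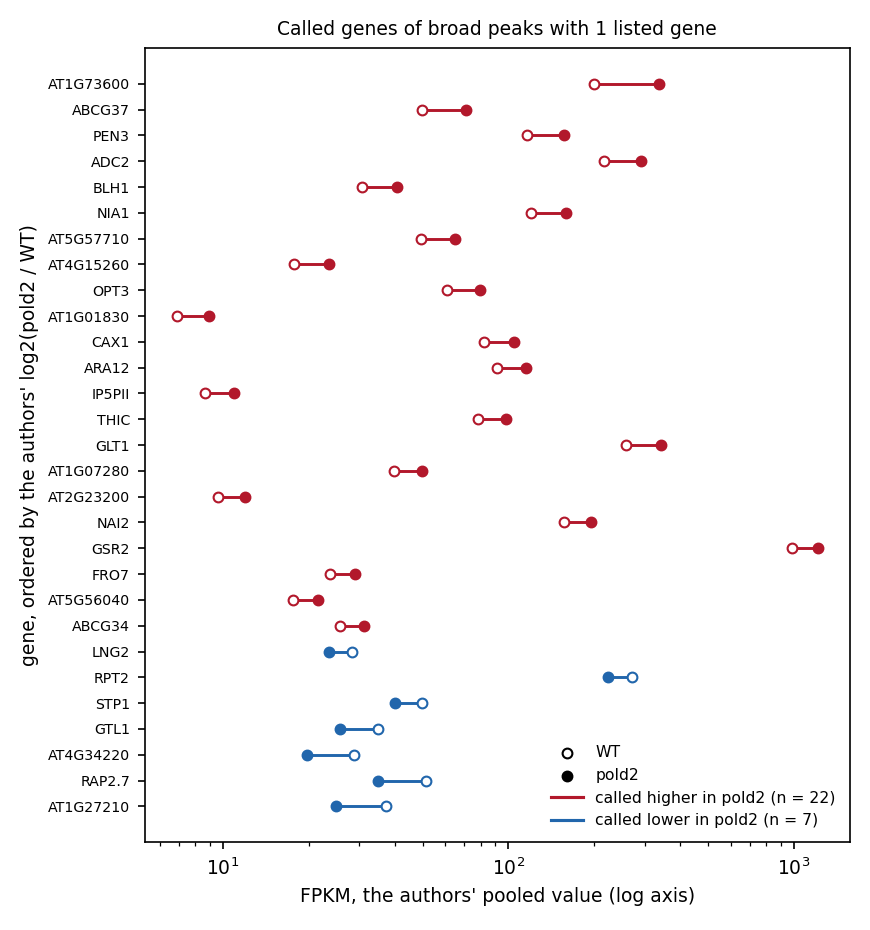
WT (open circles) and pold2 (filled circles) FPKM on a log axis for the 29 called genes that are alone under their broad peak, ordered by the log2 ratio in the authors' deposited table. Red lines mark the 22 genes called higher and blue lines the 7 called lower; each point is the authors' pooled value of 3 libraries, with no error.

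The share called was also counted by how much of a locus the peak covered. In the authors' deposited table, 81 of 520 genes with 50% or more of their locus under a broad peak were called (15.6%), and 28 of 473 with less (5.92%). The same shares under mid-length peaks were 14.3% and 7.0%, and under peaks shorter than 1000 bp 19% and 10.1%, in the authors' deposited table. Within levels, the broad-peak shares for more and less covered genes were 24.3% and 22.2% from 100 FPKM up and 20.2% and 6.74% from 20 to under 100 FPKM in the authors' deposited table. They were 7.78% and 2.15% from 5 to under 20 FPKM and 6.67% and 5.48% below 5 FPKM in the authors' deposited table. Genes alone in their locus gave 16.9% (76 of 449) and 4.48% (12 of 268) under broad peaks in the authors' deposited table. The more covered genes had a median WT level of 27 FPKM against 17.8 FPKM, and a median locus of 1919 bp against 3793 bp, and the part of locus length was not tested.

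By size, and among called genes that averaged 1 FPKM or more over the genotypes, AT5G08760 led the rises. It lies on chromosome 5 (2854940 to 2855617) and went from 35.3 to 81.1 FPKM (log2 1.20, q = 0.00103 in the authors' deposited table). CYP72A8, a cytochrome P450 gene, followed, from 23.4 to 42.4 FPKM (log2 0.86), with its tandem neighbour CYP72A7 under the same 3390 bp peak, from 12.4 to 17.7 FPKM (log2 0.51), in the authors' deposited table. These paralogs are alike in sequence, so reads may have been split between them. TIL1, the catalytic subunit gene of DNA polymerase epsilon, rose from 10.5 to 16.5 FPKM (log2 0.65, q = 0.00103 in the authors' deposited table), and 2 broad peaks covered 5.34% and 4.17% of its 16564 bp locus, which it shares. WRKY46, a defence-related transcription factor gene, rose from 2.11 to 3.07 FPKM (log2 0.55, q = 0.0454 in the authors' deposited table). Completing the 10 largest were AT3G09020 (log2 0.80), AT1G73600 (0.75), AT3G08870 (0.64), AT1G15170 (0.59), AT4G11690 (0.57) and AT1G76820 (0.53) in the authors' deposited table. All but AT1G73600 of these 6 stood under 5 FPKM in WT.

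The largest fall was that of AT3G09480, a histone H2B gene, from 17.7 to 7.23 FPKM (log2 -1.29, q = 0.00103 in the authors' deposited table). Other H2B genes fell too, HTB1 from 130 to 75.5 FPKM (log2 -0.79) and AT2G37470 from 165 to 105 FPKM (log2 -0.65) in the authors' deposited table. H2B genes are near copies of each other, so their counts are uncertain. AT1G15405, a noncoding RNA gene, fell from 61.3 to 26 FPKM (log2 -1.23), ROPGEF11, an activator of ROP GTPases, from 8.89 to 4.46 FPKM (1.99-fold), and EXPA8, a cell wall expansin gene, from 88.5 to 53.2 FPKM (log2 -0.73) in the authors' deposited table. The carotenoid hydroxylase gene BETA-OHASE 2 fell from 41.5 to 26.4 FPKM (log2 -0.65), MT3 by 0.62 on the log2 scale, AT3G15115 by 0.90 and AT4G27450 by 0.61 in the authors' deposited table.

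Called genes were next counted per peak. In the authors' deposited table, 103 of the 492 peaks (20.9%) held a called gene and 8 held 2. Of the 354 peaks with several genes 74 held a called gene (20.9%), against 553 of 3543 such mid-length peaks (15.6%), in the authors' deposited table. In the same order, 2.26% and 0.677% held 2 or more called genes by the deposited calls. The 2 sets differ in layout, since 325 of the 354 and 2119 of the 3543 held 2 or more distinct loci. The part of this in the shares was not tested. In 6 of the 8 both were lower, PAI1 with HTB1, LHCB6 with AT1G15830, PSAH2 with ROPGEF11, AT3G09480 with AT3G09500, AT3G15110 with AT3G15115, and PORB with AT4G27450. In 1 both were higher, the CYP72A pair. In 1 they went opposite ways, with AT4G13500 from 114 to 85.7 FPKM (log2 -0.42) and the ammonium transporter gene AMT1;1 from 24.7 to 30.4 FPKM (log2 0.30) in the authors' deposited table.

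High expression and a rise in pold2 seldom went together among all listed genes, and broad peaks held a larger share of the exceptions than of the genes at that level. Of the 1491 listed genes at 100 FPKM or more in WT, 36 were called higher (2.41%) and 335 lower (22.5%) by the authors' deposited table. Of the 151 under broad peaks, 10 were called higher (6.62%) and 26 lower (17.2%) by the authors' deposited table. The 10 were 27.8% of the 36, against 10.1% of all genes at that level under broad peaks. The comparison was made after the values were seen and was not tested. It is not independent of the count of genes alone under a broad peak, which holds 7 of the 10. Besides the 7 of them already named as alone under their peak, they were DET3, a subunit gene of the vacuolar proton pump, from 113 to 153 FPKM, the phosphoglycerate kinase gene AT1G56190, from 158 to 194 FPKM, and AT5G61820, from 105 to 129 FPKM.

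Gene lists showed which pathways had members under broad peaks. Of all listed genes 993 of 19858 (5.0%) lay under one, so a 0 in lists this small is near that share and nothing is read from it. Genes that handle the mark itself had none, with 0 of 11 listed H3K4 methyltransferase-complex genes, 0 of 5 JmjC demethylases and 0 of 13 readers under a broad peak. Over all listed members, 0 writers, 0 demethylases and 2 readers (lower) were called in the authors' deposited table. No member lay under a broad peak among 12 auxin response factors (0 called), 13 translation, ubiquitin and actin genes (0 called) and 10 RNA silencing genes (0 called) in the authors' deposited table. The 18 DNA damage response genes also had none, while 13 of them were higher and 0 lower by the authors' deposited table. Over all listed genes 5.97% were called higher and 6.47% lower. Of 13 clock genes RVE8 lay under a broad peak (33.9 FPKM in WT), of 9 photoreceptor genes PHOT1 (96.7 FPKM) and PHOT2 (91.6 FPKM), and of 16 hormone genes the brassinosteroid receptor gene BRI1 (60.4 FPKM), and none of these 4 was called in the authors' deposited table. Of 10 chaperone genes, HSC70-1 and HSP101 lay under broad peaks, and HSP101 rose from 5.59 to 7.85 FPKM (log2 0.49, q = 0.00264 in the authors' deposited table).

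Pump, cellulose synthase and nitrate reductase genes had 4 of 7 members under broad peaks. They were AHA2, AHA1 at 283 FPKM in WT and 318 in pold2, CESA6 at 123 and 133 FPKM, and NIA1, the 1 that was called in the authors' deposited table. The 7 had a median WT level of 169 FPKM, and 10.1% of all listed genes at 100 FPKM or more lay under a broad peak. Photosynthesis genes had 4 of 16, RCA, LHCB3, CA1 and GAPB. The 16 had a median WT level of 3781 FPKM, and 17.1% of all listed genes at 1000 FPKM or more lay under a broad peak. Among the 16 listed members 9 were lower and 0 higher by the authors' deposited table, and LHCB3 was the 1 called among the 4. Of all listed genes at 1000 FPKM or more in WT, 39.6% were called lower and 1.80% higher. The median log2 ratio was -0.39 over the 16 and 0.01 over the 4.

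A further 4 lists were chosen after genes under broad peaks had been seen, so their counts are not independent of these data. Over all listed genes 5.97% were called higher and 6.47% lower. At 100 FPKM or more in WT these shares were 2.41% and 22.5%, and at 1000 FPKM or more 1.80% and 39.6%. Of all listed genes at those 2 levels, 10.1% and 17.1% lay under a broad peak. Median WT levels were 2248 FPKM for photosystem I, 337 for chlorophyll synthesis, 594 for photorespiration and 161 for nitrogen assimilation. Nuclear photosystem I genes had 4 of 12 under broad peaks, with 11 of the 12 and 3 of the 4 lower by the authors' deposited table and a median log2 ratio of -0.38 in both. Chlorophyll synthesis genes had 5 of 14, with 6 of the 14 lower, among them PORB from 428 to 306 FPKM (log2 -0.48) under a broad peak, in the authors' deposited table. Photorespiration genes had 6 of 14 (GGT1, CAT2, GOX1, GOX2, GLDP1 and GLDP2, at 187 to 1133 FPKM in WT), with 0 of the 14 called in the authors' deposited table. Nitrogen assimilation genes had 6 of 14, with 6 of the 14 higher and 1 lower by the authors' deposited table. Of these 6 genes under broad peaks, NIA1, GSR2, GLT1 and AMT1;1 were higher, while NIR1, nitrite reductase, stood at 268 and 322 FPKM (q = 0.0756) and GLU1, the ferredoxin-dependent glutamate synthase, at 471 and 469 FPKM (q = 0.988) in the authors' deposited table. The median log2 ratio was 0.29 over the 6 and 0.27 over the 14.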

How the data were processed

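RNA and chromatin libraries of WT and pold2 seedlings were analysed from the authors' deposited RNA-seq table and WT peak lists; the bisulfite, pold2 ChIP, H3 and input libraries were not used here. The table gives FPKM that the authors pooled to 1 value per genotype, per the file headers, with a log2 fold change, a p-value and a q-value, used as deposited. The score of each peak is the authors' value, per the files. The submitters' processing notes list TopHat2 2.1.1 and Cuffdiff 2.1.1, bcl2fastq, SAMtools, Bowtie 0.12.9, Bowtie2 2.0.5, Bismark 0.7.4 and the build TAIR10, without roles. The peak caller's version and control were not given in the sources used here, nor was the strand setting of the counting.

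Peaks were read as 0-based half-open intervals and intersected with the table's loci in Python 3.11.15 (numpy 2.4.6, pandas 2.3.3, scipy 1.17.1). Locus starts were read as 0-based, since 3576 starts lay 1 below the reference start and 122 equalled it. Loci are merged where genes overlap, and 276 of the 993 genes share one. Symbols came from RefSeq TAIR10.1, which matched 19812 of 19858 identifiers (99.8%). A gene counted as called where its deposited q was under 0.05. The overlap and the rule were tested on simulated data, and 20 of 20 runs matched a base-by-base count. Each listed gene reached 0.501 FPKM or more in at least 1 genotype.

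Named were the 10 longest, 5 highest- and 3 lowest-scoring peaks, the 3 with most genes, 3 on each side of the length minimum, the 10 largest rises and falls averaging 1 FPKM or more, the 5 highest and 3 lowest genes, and list members. The peaks and lists (13 lists, with 4 added later) were chosen with earlier results of these data known. Other genes were named after their values were seen. No sequences are printed.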

Additional observations from a re-analysis of the deposited data

How the results depend on the processing

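Of 36 alternatives, 24 left a count within 1.5 times its value, or a median or share within its 95% interval (18.9 to 22.8 FPKM for the median WT level, 67.8% to 75.7% for peaks with 2 or more genes). Among these, joining peaks across 200 bp gave 729 broad peaks, and requiring 50% of a locus gave 380. A minimum of 2000 bp gave 1695 broad peaks with 122 genes higher and 211 lower in pold2, and 3000 bp gave 147 peaks with 20 higher and 19 lower (6.29% and 5.97% of 318 genes), in the authors' deposited table. At a q under 0.01 there were 23 higher and 38 lower (7.59% of all listed genes were called), and at 2-fold 2 and 2, in the authors' deposited table. Requiring 50% of a locus to be covered raised the median WT level to 27 FPKM and lowered the share of peaks with 2 or more genes to 31.8%. The restriction of peaks with 1 gene to loci of at least 2500 bp (49.9 FPKM) was chosen after the data were seen. The causes were not tested, beyond the smaller or larger number of peaks that a length minimum leaves.

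No paired analysis was possible because the table holds 1 pooled value per genotype, and leaving out a replicate was not possible either. Each peak list is 1 library, so broad peaks have no replicate and their edges no error. The depth is unknown. Most scores sit at 3100, which limits ranking by score. The table holds no strand and no gene below its level minimum.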
